A study of Homo sapiens with 2 samples.

Results

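The nuclear genes of the mitochondrial respiratory chain were followed in BT549, a mesenchymal line of triple-negative breast cancer. They were taken by symbol: every protein-coding gene whose name starts with NDUFA, NDUFB, NDUFC, NDUFS, NDUFV, UQCR, COX4, COX5, COX6, COX7 or COX8, plus SDHA, SDHB, SDHC and SDHD. This gave 78 of the 58735 genes in the tables. Of these, 60 encode subunits, with 37 in complex I, 4 in complex II, 8 in complex III and 11 in complex IV. The other 18 comprise 8 complex I assembly factors (NDUFAF genes), 8 isoforms or paralogs of complex IV subunits, the retrogene UQCRHL and the read-through gene NDUFC2-KCTD14.

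Both cultures received the ligand Wnt3a for 2 h before total RNA was sequenced. The scrambled group carried a control hairpin RNA and the shSIK2 group a hairpin RNA that targets the salt-inducible kinase SIK2, with 1 library in each. No untreated culture was analysed here, so each value below is from Wnt3a-treated cells. Since a group is a single library, differences could not be checked against replicates, and neither tests nor p-values are given. Values are FPKM, reads per gene scaled for exon length, and a log2 ratio is that of shSIK2 over scrambled after adding 0.1 FPKM. A fold is the ratio of the reads recovered from the FPKM values, and its 95% interval (exact, Clopper-Pearson) covers counting error only. Genes were counted as past 2-fold or 1.5-fold by the log2 ratio. A gene was called measured when either library reached 1 FPKM.

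The recovered depth was 18019225 reads in the scrambled and 16347399 in the shSIK2 library. SIK2 itself stood at 7.80 FPKM in the scrambled and 3.56 in the shSIK2 library (1312 and 599 reads), as deposited 2.19-fold lower (1.99 to 2.42). Scaled to equal totals, this fold is smaller by a factor of 1.10, which places it just under 2-fold. The line's mesenchymal markers were present, among them VIM at 260 and 283 FPKM and ZEB1 at 29.6 and 26.1. PGR and EPCAM were listed at 0 in both libraries, ESR1 had 6 and 0 reads and CDH1 had 11 and 2. ERBB2, also listed beforehand as a low marker of the line, was measured at 4.96 and 6.75 FPKM, with 879 and 1195 reads. SPARC, another mesenchymal marker, was at 38.1 and 189 FPKM, so the markers of the line were not all alike in the libraries. Of 14 markers of leukocytes, endothelial cells, adipocytes and striated muscle, 0 were measured, with 25 and 27 reads over the whole list.

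The respiratory chain moves electrons from NADH and succinate to oxygen across the inner mitochondrial membrane and pumps protons for ATP synthase. Complex I oxidises NADH, complex II oxidises succinate and is also an enzyme of the citric acid cycle, complex III passes electrons to cytochrome c, and complex IV reduces oxygen. Except for complex II, each complex joins nuclear-encoded subunits with some made inside the mitochondrion from its own chromosome, so subunits from separate genomes must meet in fixed proportions.

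Most subunit transcripts differed little between the libraries. Of the 78 genes, 70 were measured, and 3 of them (SDHA, NDUFA2 and COX7A1) were past 2-fold on the higher side in the shSIK2 library, and 0 on the lower side. Among all 12866 measured genes 11.0% were past it on the higher and 8.28% on the lower side, 19.3% together. Of the 60 subunit genes 58 were measured, and 52 of these (89.7%) lay within 1.5-fold, against 59.0% of all measured genes. The other 6 were 4 higher (SDHA, NDUFA2, NDUFA11 and COX6B1) and 2 lower (NDUFA12 and NDUFS1), where 19.7% of all measured genes were higher and 21.3% lower by that much. This split depended on the scaling of the libraries, as given next. The subunits' median log2 ratio was 0.04, with an order-statistic interval of -0.08 to 0.14 that shows the spread between members only. All measured genes had a median of -0.11. The interquartile range was 0.376 over the subunits and 0.925 over all measured genes. The median level of the subunits was 21.6 FPKM in the scrambled library, and that of all measured genes 5.90. Among genes with at least 5 FPKM the contrast was of the same kind, with 43 of 48 subunits (89.6%) and 64.3% of all such genes within 1.5-fold.

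The libraries were not scaled to the same total, and scaling them to equal totals raises a log2 ratio by up to 0.14, and by less for low genes because of the added 0.1 FPKM. The subunits' median then became 0.18 and that of all measured genes 0.03. The share of subunits within 1.5-fold was again 89.7%, against 60.2% of all genes, but the subunits outside it were not the same. NDUFA12 and NDUFS1 came inside, at -0.50 and -0.48, and NDUFB8 and UQCRB went outside, at 0.63 and 0.62. At equal totals 6 subunits were thus at least 1.5-fold higher and 0 lower, against 24.0% and 15.8% of all measured genes. Past 2-fold there were 5 members higher, with COX6B1 and NDUFA11 joining, and 0 lower, against 13.4% and 6.04%. Deep counts still resolved small differences: for 37 of the 58 subunits (63.8%) the counting interval of the read ratio left out 1, 25 of them higher and 12 lower. The same was true of 73.3% of all measured genes, 30.4% higher and 42.9% lower. At equal totals 32 subunits were higher and 7 lower by this measure, against 37.4% and 34.0% of all measured genes. Summed over all measured subunits, the level was 1724 FPKM in the scrambled and 1778 FPKM in the shSIK2 library.

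**Figure D1:**
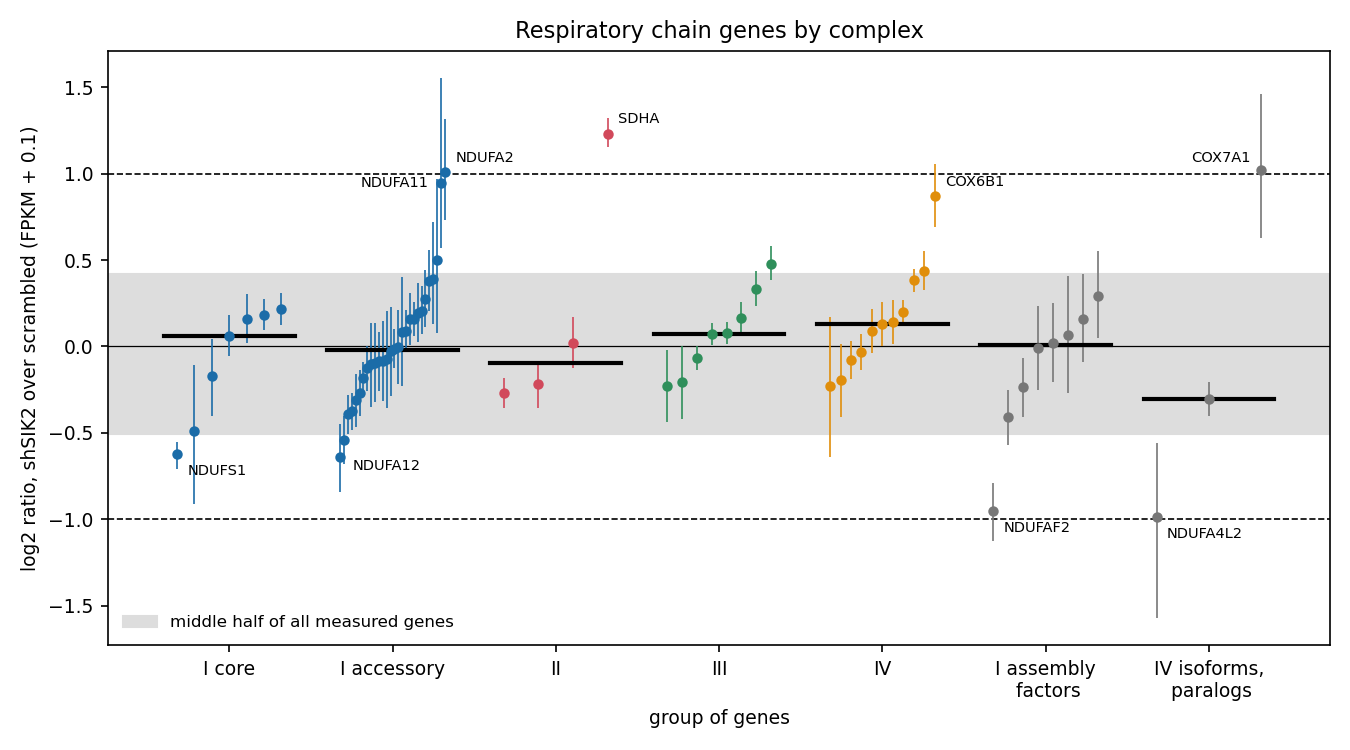
Log2 ratio of shSIK2 over scrambled (vertical axis) for each measured gene, grouped by complex along the horizontal axis. Points are genes with 95% counting intervals, black bars are group medians, the grey band is the interquartile range of all measured genes (-0.51 to 0.42) and dashed lines mark 2-fold; most points lie inside the band, with SDHA highest at 1.23.

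Complex by complex the medians were close together. They were -0.01 in complex I (interval -0.10 to 0.16, 35 genes), -0.10 in complex II (4 genes), 0.07 in complex III (-0.23 to 0.48, 8 genes) and 0.13 in complex IV (-0.20 to 0.44, 11 genes). The intervals overlap, so no order of the complexes is given. At equal totals all 4 medians were above 0, at 0.13, 0.04, 0.21 and 0.27, so the sign in complexes I and II depended on the scaling. The summed level went from 897 to 854 FPKM in complex I, from 85.2 to 91.7 in complex II, from 354 to 380 in complex III (without CYC1, which the symbol rule leaves out) and from 387 to 452 in complex IV. With CYC1 the complex III sum went from 506 to 495 FPKM, so as deposited its direction turned. These sums are as deposited, and equal totals raise each shSIK2 sum relative to the scrambled one by a factor of 1.10. Neither the complex I sum nor the complex III sum with CYC1 is then lower in the shSIK2 library. The complex IV sum was 1.17 times as high in the shSIK2 library, the largest such ratio of the 4 by the symbol rule.

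Complex II held the subunit that stood furthest apart. SDHA, the flavoprotein that oxidises succinate (ENSG00000073578, GRCh38 chromosome 5, 218241 to 256700, plus strand), was at 11.8 FPKM in the scrambled and 27.8 FPKM in the shSIK2 library. Its reads were 1698 and 4006, a 2.36-fold difference (2.23 to 2.50). SDHB, the iron-sulfur subunit that binds SDHA directly, was at 53.7 and 44.5 FPKM, 1.21-fold lower (1.13 to 1.28). The membrane anchors SDHC and SDHD, which bind ubiquinone, were at 4.04 and 3.47 FPKM and at 15.6 and 15.9 FPKM. As deposited, SDHA was the only one of the 4 that was higher in the shSIK2 library beyond counting error. At equal totals SDHD was as well, 1.12-fold (1.01 to 1.24). The proteins of complex II occur in equal numbers, yet the ratio of SDHA to SDHB transcripts per length went from 0.220 to 0.625. Without SDHA the median of complex II was -0.22.

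SDHA has near-identical copies, so its reads are uncertain. The unprocessed pseudogene SDHAP1 had 241 and 323 reads and SDHAP3 had 46 and 135, while SDHAP2 was listed at 0. Adding them all to SDHA gave a log2 ratio of 1.16 in place of 1.23. The sources used here do not say how reads that match several genes were counted. This sum therefore does not bound the uncertainty. Over the whole family 35 members had 119 pseudogenes named after them, and these held 437 and 629 reads in all, against 71369 and 74220 in the measured members. Apart from SDHA the share mattered most for COX6A1, a small complex IV subunit, whose pseudogene COX6A1P2 had 65 and 51 reads beside 114 and 97 of its own.

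The SDHA start site region carries a repeated element, shown here because SDHA is the subunit that stood apart. In the RefSeq promoter window (GRCh38.p14, 250 bases before to 50 after the start) the 11 letters TGCGCAGGCGC occur 4 times on the plus strand, at positions -167, -118, -69 and -20 from the RefSeq start, each 49 bases from the next. They are in capitals below with 9 bases on either side, at chr5:218144-218172, chr5:218193-218221, chr5:218242-218270 and chr5:218291-218319.
SDHA copy at -167: ggtccgcttTGCGCAGGCGCggcgccccc
SDHA copy at -118: gtggcatggTGCGCAGGCGCgatgtcccc
SDHA copy at -69: ccggcgtggTGCGCAGGCGCggtatcccc
SDHA copy at -20: ccggtgtggTGCGCAGGCGCagtctgcgc
The first pair lies in the first exon of CCDC127, which is transcribed the other way, and the last pair in the first exon of SDHA by GENCODE. They are the longest stretch found 4 times in the 250 bases before the start, a search made after the sequence was seen, and were then counted on both strands. Of 15843 promoters of protein-coding genes 315 (1.99%) hold at least 1 copy, and 2 hold 4 or more. COX8C, NDUFA8 and UQCR11 are the other members with a copy, of which NDUFA8 and UQCR11 were measured, with log2 ratios of -0.31 and -0.21, and COX8C had 2 and 6 reads. CCDC127, whose start lies 26 bases from that of SDHA, had 691 and 740 reads, a log2 ratio of 0.10. The gene across the start site therefore did not share the difference seen for SDHA.

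Complex I, the largest assembly, was nearly level as a group. Its core consists of the subunits conserved from bacteria, and the nuclear ones carry the flavin and the iron-sulfur clusters. All 7 were measured, with a median log2 ratio of 0.06. NDUFS1, the large iron-sulfur subunit of the NADH-oxidising arm (chromosome 2, 206114817 to 206159603, minus strand), was at 16.1 and 10.4 FPKM, with 3393 and 2195 reads, 1.55-fold lower in the shSIK2 library (1.46 to 1.63). NDUFV1, the flavin-binding subunit of the same arm, was at 20.3 and 23.6 FPKM, 1.16-fold higher (1.09 to 1.24). The ratio of NDUFS1 to NDUFV1 transcripts per length went from 0.795 to 0.443. NDUFV2, their partner with an iron-sulfur cluster, was at 2.75 and 1.93 FPKM on 128 and 90 reads. NDUFS3, NDUFS7 and NDUFS8 stayed nearer to each other, at 12.2 and 13.6 FPKM, 2.73 and 2.41 FPKM, and 24.3 and 27.6 FPKM. NDUFS7 lies across an annotated antisense gene with 2 and 0 reads.

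NDUFS1 shares its start with EEF1B2, a translation elongation factor gene on the opposite strand, 18 bases away. EEF1B2 had 5622 and 3529 reads, a log2 ratio of -0.67 beside -0.62 for NDUFS1. Between their starts lies a match to CCGGAAG, the core bound by the ETS factor GABP. It is shown because it is the only motif match in the NDUFS1 window, at position -157 from the RefSeq start, on the opposite strand, in the minus-strand stretch chr2:206159586-206159610.
NDUFS1: ctggggccaCTTCCGGcggaactgc
The capitals mark the match, and the stretch is annotated as exon of both genes. A match is a description of letters and shows no binding.

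The accessory subunits of complex I surround the core and stabilise it. Of the 30 genes 28 were measured, with a median log2 ratio of -0.02. NDUFA2, at the edge of the NADH-oxidising arm (ENSG00000131495, chromosome 5, 140638740 to 140647785, minus strand), was at 5.80 and 11.7 FPKM with 148 and 300 reads, 2.03-fold higher (1.66 to 2.49). It was the only accessory subunit past 2-fold by log2 ratio. NDUFA2 shares 124 exon bases with TMCO6 on the opposite strand, which had 139 and 438 reads, and 70 with IK, which had 1468 and 1552. The sources used here do not say whether the libraries kept strand, so reads of NDUFA2 and of these genes cannot be told apart over those bases. NDUFA11, a membrane subunit, was at 0.638 and 1.32 FPKM on 53 and 110 reads, 2.08-fold higher by reads (1.48 to 2.94) with a log2 ratio of 0.95 after the added 0.1 FPKM.

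On the lower side NDUFA12 was at 17.4 and 11.1 FPKM, as deposited 1.56-fold lower in the shSIK2 library (1.36 to 1.79). NDUFA6, which like NDUFA12 and NDUFA2 belongs to the arm that extends into the matrix, was at 43.2 and 29.7 FPKM, 1.45-fold lower (1.32 to 1.60). The NDUFB subunits, of the membrane arm far from the site of NADH oxidation, were close together. All 11 were measured and all 11 lay within 1.5-fold, from -0.39 for NDUFB9 to 0.50 for NDUFB8, and at equal totals 10 of 11 did. NDUFB8 is uncertain, since it rests on 74 and 106 reads and overlaps other genes. NDUFS5 had the highest FPKM of any member in both libraries, at 231 and 204, followed within complex I by NDUFB7 at 73.5 and 82.1 and NDUFB11 at 54.5 and 54.0.

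Assembly factors help build complex I and leave it afterwards. All 8 NDUFAF genes were measured, with a median log2 ratio of 0.01, and 7 lay within 1.5-fold. NDUFAF2, a paralog of NDUFA12 that occupies its place during assembly (chromosome 5, 60945129 to 61153037, plus strand), was the exception at 48.4 and 24.9 FPKM. Its reads were 844 and 435, 1.94-fold lower in the shSIK2 library (1.73 to 2.18). NDUFAF2 and NDUFA12 were thus both lower, and among the 70 measured members they had the second and the third lowest log2 ratios after NDUFA4L2. NDUFAF4 was at 17.8 and 13.4 FPKM, and NDUFAF7 was highest of the set with a log2 ratio of 0.29.

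Complex III was the complex without a subunit past 1.5-fold, with 8 of 8 inside it. UQCRB, which binds ubiquinone near cytochrome b, differed most, at 8.42 and 11.8 FPKM on 1404 and 1963 reads, 1.40-fold higher. At equal totals it passed 1.5-fold, leaving 7 of 8 within. UQCRQ, a small neighbour of cytochrome b, was at 55.2 and 69.6 FPKM. The core proteins UQCRC1 and UQCRC2, which descend from a processing peptidase, were at 73.5 and 77.6 FPKM and at 46.5 and 48.8 FPKM. UQCRFS1, the Rieske iron-sulfur protein, was at 57.0 and 54.5 FPKM, and UQCRH, the hinge protein, at 77.6 and 87.1 FPKM. UQCR10 and UQCR11 were slightly lower, with log2 ratios of -0.23 and -0.21. The retrogene UQCRHL was at 1.82 and 2.30 FPKM, 0.0234 and 0.0264 of the level of UQCRH, from which it derives, so its reads are uncertain.

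Complex IV included 7 subunits with a log2 ratio above 0 and 4 below, or 9 and 2 at equal totals. Of all 12866 measured genes 5609 were above 0 and 7187 below, or 6647 and 6219 at equal totals. COX6B1, which faces the intermembrane space where cytochrome c binds (chromosome 19, 35648223 to 35658861, plus strand), was at 23.4 and 42.8 FPKM. Its reads were 376 and 688, 1.83-fold higher in the shSIK2 library (1.61 to 2.08), and it passed 2-fold at equal totals with 1.01. COX7A2, the isoform of COX7A found outside muscle, was at 33.8 and 45.9 FPKM, 1.36-fold higher (1.26 to 1.47). COX7C had the highest level in the complex, at 93.4 and 122 FPKM, 1.30-fold higher (1.25 to 1.37). COX4I1 and COX5A, among the larger nuclear subunits, were at 34.5 and 39.5 FPKM and at 40.8 and 43.4 FPKM. COX8A was at 45.9 and 39.99 FPKM, and COX6A1 had the lowest log2 ratio, at -0.23 on 114 and 97 reads. NDUFA4, named after complex I but a subunit of complex IV, was at 21.8 and 20.6 FPKM.

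**Figure D2:**
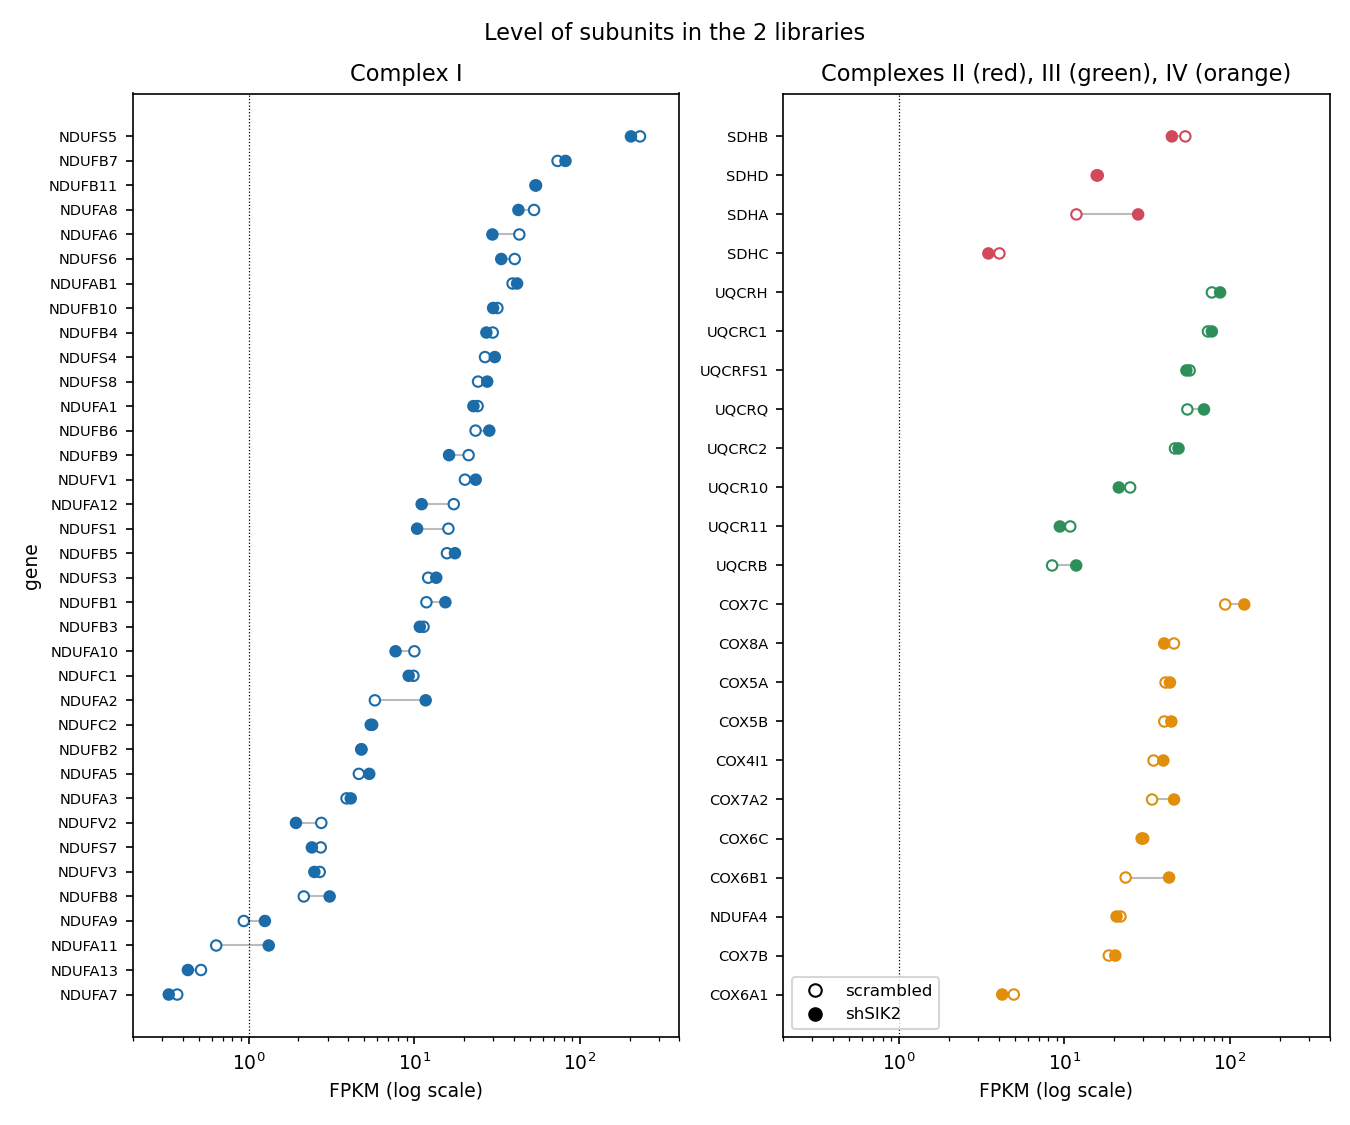
FPKM of subunits (horizontal log axis) in the scrambled (open points) and shSIK2 (filled points) libraries, complex I at left and complexes II to IV at right; a dotted line marks 1 FPKM. NDUFS5 leads at 231 and 204 FPKM, SDHA, NDUFA2, NDUFA11 and COX6B1 show the widest gaps to the right, and NDUFA7 and NDUFA13 lie below 1 FPKM in both.

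Several complex IV subunits have isoforms used in muscle, lung or testis or under low oxygen, and BT549 used mainly the ubiquitous forms. COX4I2, COX6A2 and COX7B2 were listed at 0 in both libraries, COX6B2 had 3 and 14 reads and COX8C 2 and 6. COX7A1, the heart and skeletal muscle form (chromosome 19, 36150922 to 36152869), was measured at 4.23 and 8.69 FPKM. Its reads were 73 and 150, 2.05-fold higher in the shSIK2 library (1.54 to 2.76). The ratio of COX7A1 to COX7A2 went from 0.125 to 0.189. The muscle markers ACTA1, MYH7, CKM and DES were listed at 0 in both libraries. NDUFA4L2, the hypoxia-inducible paralog of NDUFA4, was at 2.16 and 1.04 FPKM, with 104 and 50 reads, 2.08-fold lower by reads (1.47 to 2.98) with a log2 ratio of -0.99. It shares 33 exon bases with SHMT2 on the opposite strand, which had 6318 and 3980 reads. COX7A2L, which links complexes III and IV into supercomplexes, was at 19.2 and 15.6 FPKM, 1.23-fold lower (1.15 to 1.32).

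The deposited levels of some subunits were far below those of their partners, and annotation overlap went with this. The bases of each gene's principal transcript (the APPRIS principal form) were compared with the exons of all other genes. For 5 subunits at least 50% were shared: NDUFA11, NDUFB8, NDUFA7, NDUFV2 and NDUFB2, at 67.0% to 83.4%. Their median level in the scrambled library was 2.16 FPKM, from 0.371 to 4.81. For the 23 subunits with a smaller shared part it was 15.6 FPKM, and for the 32 with none 28.3 FPKM, from 2.69 to 231. Across the 60 subunits, which are not independent, Spearman's rho between the shared percentage and the level was -0.45. Annotated length went with the level almost as closely. For the ratio of all exon bases to principal transcript bases rho was -0.41 over the same 60. NDUFA11 has 4839 exon bases and a principal transcript of 539. Which of these features accounts for the low levels was not tested. The read-through genes that cover NDUFA11, NDUFA7 and NDUFB8 (AC024592.3, AC010323.1 and AL133352.1) were listed at 0 reads, and so was AP005263.1 over NDUFV2.

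NDUFA7 had 9 and 8 reads and NDUFA13 had 24 and 20, though both are integral parts of complex I. NDUFA13 shares 44.1% of its principal transcript. The sources used here do not say how reads in shared exons were counted, so low values of these genes are uncertain and are not read as low expression. Leaving out the subunits with at least 50% shared changed the share within 1.5-fold from 89.7% to 90.7%.

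**Figure D3:**
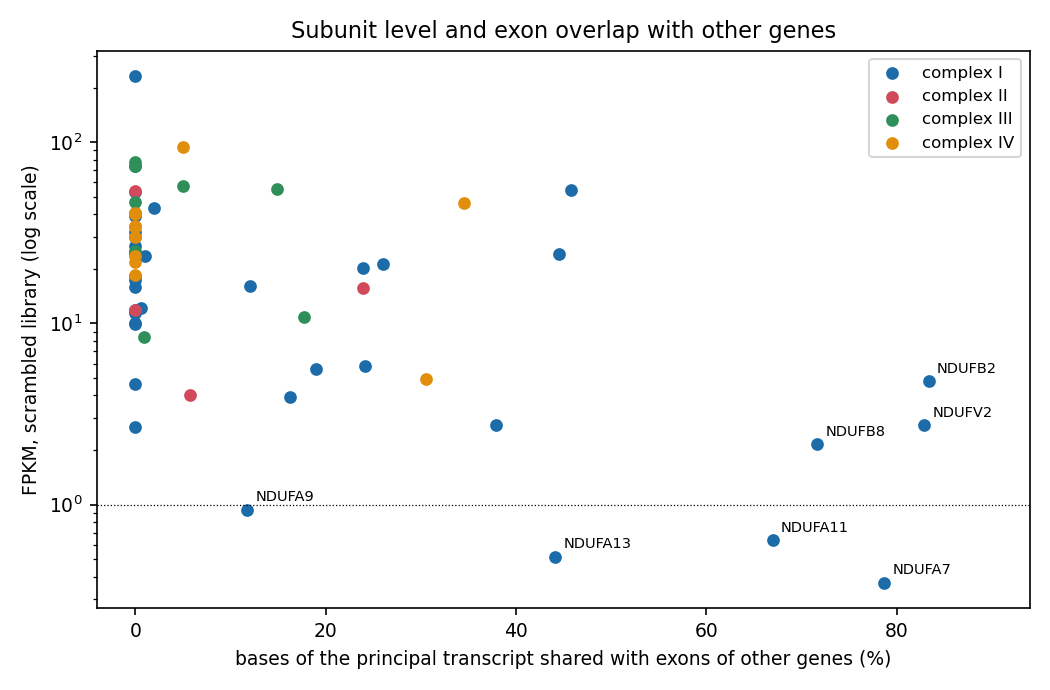
Percentage of each subunit's principal transcript shared with exons of other genes (horizontal axis) and its FPKM in the scrambled library (vertical log axis), 1 point per subunit, coloured by complex, with a dotted line at 1 FPKM. The 5 subunits with at least 50% shared lie between 0.371 and 4.81 FPKM, and those with none reach 231 FPKM.

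The order of levels also depended on the length used. FPKM is per length of all annotated exons of a gene, which was 2.01 times (median) and up to 8.98 times as long as the principal transcript. On reads per kb of the principal transcript, COX4I1 stood at 3962 and 4542, beside 3987 and 3515 for NDUFS5, so COX4I1 led in the shSIK2 library and NDUFS5 in the scrambled library. This choice changes levels between genes and leaves the ratio between libraries as it is.

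The subunits' ratios did not follow the GC content of their transcripts, which ratios in these libraries otherwise did. Spearman's rho between GC content and log2 ratio was 0.33 over 10666 measured protein-coding genes and 0.03 over the 58 subunits. Removing the trend with GC content and exon length left 84.5% of subunits within 1.5-fold, against 67.4% of protein-coding genes, and their interquartile range rose from 0.376 to 0.567. SDHA and NDUFA2 were then at 1.35 and 1.09, COX7A1 fell short of 2-fold at 0.77, and NDUFA4L2 reached -1.47. NDUFS1 and NDUFA12 came nearer to 0, at -0.29 and -0.38.

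Chromosomal position went with some of the lower values. For each subunit the median log2 ratio of up to 20 measured protein-coding genes on each side was taken, with fewer near a chromosome end. Over the 58 subunits this median and the subunit's own ratio had a rho of 0.37, and over all measured protein-coding genes 0.29. NDUFA12 (chromosome 12, 94897055 to 95003770) lay among genes with a median of -0.75, below its own -0.64, so relative to its neighbours it was at 0.11. NDUFS1 lay among genes at -0.35 and NDUFA2 among genes at 0.30. SDHA had neighbours at 0.11 and kept 1.12 relative to them, the only subunit past 2-fold on that scale. SDHA starts at base 218241 of chromosome 5, near its end, so its neighbours lay mainly downstream. NDUFA4 and NDUFB2 were near 0 among neighbours at -0.64 and -0.51.

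**Figure D4:**
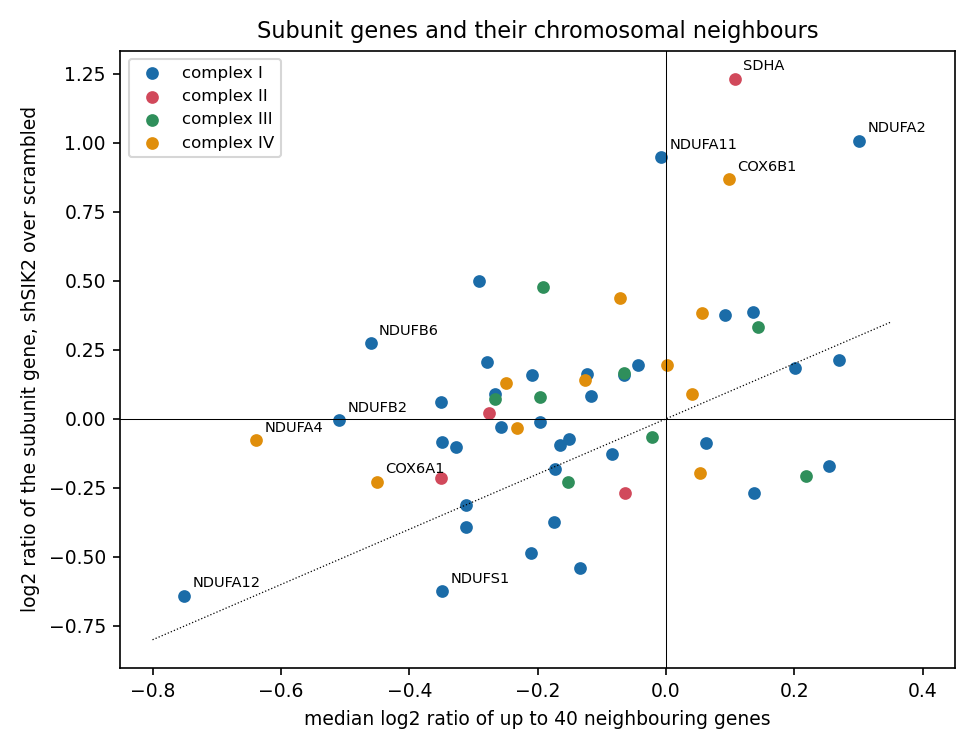
Median log2 ratio of up to 40 neighbouring genes (horizontal axis) and log2 ratio of the subunit gene itself (vertical axis) for the 58 measured subunits, coloured by complex; the dotted line marks equal values. NDUFA12 lies near the line at -0.75 and -0.64, while SDHA at 1.23 lies far above its neighbours' 0.11.

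Promoters of respiratory genes are known for sites of NRF1, GABP, YY1 and ERR factors. RefSeq windows were matched for 64 of the 78 genes, 51 of them subunits, and both strands were searched. CGCATGCG, the core of the NRF1 motif, was in 11.8% of subunit windows and 2.88% of the 15843 protein-coding windows. AAGATGGC, the core of the YY1 motif, was in 15.7% and 3.91%. TCAAGGTCA (ERR) was in 1.96% and 0.240%, which is 1 subunit window, that of SDHD, and 38 of all windows. CCGGAAG (ETS factors, GABP among them) was in 29.4% of subunit windows and 14.2% of all, with 5 of 32 windows in complex I, 2 of 3 in complex II, 3 of 7 in complex III and 5 of 9 in complex IV. The 6 sites of those 5 complex IV genes are shown to let them be compared. They lie at chr16:85799688-85799712, chr2:97646016-97646040, chr2:97646048-97646072, chr12:120438088-120438112, chr19:35648302-35648326 and chr11:63974593-63974617, plus strand. The match at -37 of COX5B lies before the annotated gene, and the others overlap an annotated exon of their gene. Capitals mark the match.
COX4I1: ccttgctctCTTCCGGtcgcgggac
COX5B at -37: agcccgcccCCGGAAGtccctcctg
COX5B at -5: agcttgttcCCGGAAGttttgctgc
COX6A1: ccacttccgCTTCCGGcgctgcggc
COX6B1: ctctctcagCTTCCGGctggtagta
COX8A: gctccagaaCTTCCGGccagcgcag
The 5 genes ranged from -0.23 (COX6A1) to 0.87 (COX6B1) in log2 ratio. Among measured subunits the median was 0.08 for the 14 with this match and 0.08 for the 35 without. With the NRF1 core it was -0.20 over 6 subunits, and 0.09 over the 43 without it. These medians are as deposited, where all measured genes had a median of -0.11. The ratios of all genes with the core were not taken. Whether the motif bears on the ratio was not tested.

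Other genes of the pathway were read from lists of known members. ATP synthase, which uses the proton gradient, had 18 of 19 genes measured, 0 past 2-fold in either direction, beside 19.3% of all measured genes. Its median was -0.03, from -0.55 (ATP5PD) to 0.48 (ATP5F1D). The 11 subunits of complexes I, III and IV made from the mitochondrial chromosome had a median of 0.33, which became 0.47 at equal totals. Of the 11, 1 was at least 2-fold higher, beside 11.0% of all measured genes. That gene was MT-ND6, at 955 and 2087 FPKM, 2.18-fold higher (2.13 to 2.24), which is encoded on the opposite strand from the other subunit genes of that chromosome. CYCS, the cytochrome c that carries electrons between complexes III and IV, was at 53.5 and 29.05 FPKM, 1.84-fold lower (1.75 to 1.94). CYC1, the nuclear cytochrome of complex III that the symbol rule leaves out, was at 152 and 115 FPKM, 1.33-fold lower (1.27 to 1.38).

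Assembly factors outside the NDUFAF names numbered 36 measured genes of 40, with a median of -0.27, 1 higher and 4 lower past 2-fold, beside 11.0% and 8.28% of all measured genes. SDHAF1 and SDHAF3, which help insert iron-sulfur clusters into SDHB, went opposite ways: SDHAF1 was at 4.28 and 11.4 FPKM on 82 and 218 reads, and SDHAF3 at 14.7 and 6.07 FPKM. COX19, COA4 and COA6, which take part in complex IV assembly, were 2.69-fold (2.34 to 3.10), 2.22-fold (2.07 to 2.39) and 2.16-fold (1.94 to 2.40) lower. At equal totals 1 factor was higher and 3 were lower past 2-fold, beside 13.4% and 6.04% of all measured genes.

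Transcription regulators of mitochondrial genes had 11 of 12 genes measured, with a median of -0.40 and 3 at least 2-fold lower, beside 8.28% of all measured genes. TFB2M, a factor of the mitochondrial RNA polymerase, was at 42.1 and 16.6 FPKM, 2.53-fold lower (2.29 to 2.81). NRF1 was at 6.40 and 2.95 FPKM, 2.17-fold lower (1.84 to 2.57), and GABPB1, a subunit of GABP, was 2.22-fold lower (1.93 to 2.56). At equal totals TFB2M alone passed 2-fold, beside 6.04% of all measured genes, with a list median of -0.26. Coenzyme Q synthesis had 10 of 11 genes measured, 1 at least 2-fold lower (COQ5, at 10.5 and 4.69 FPKM), beside 8.28% of all measured genes. The median of that list was -0.10 and became 0.04 at equal totals. The citric acid cycle had a median of -0.004 over 14 genes (0.14 at equal totals), with IDH2 at 15.1 and 51.7 FPKM, 3.42-fold higher (3.15 to 3.72).

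**Figure D5:**
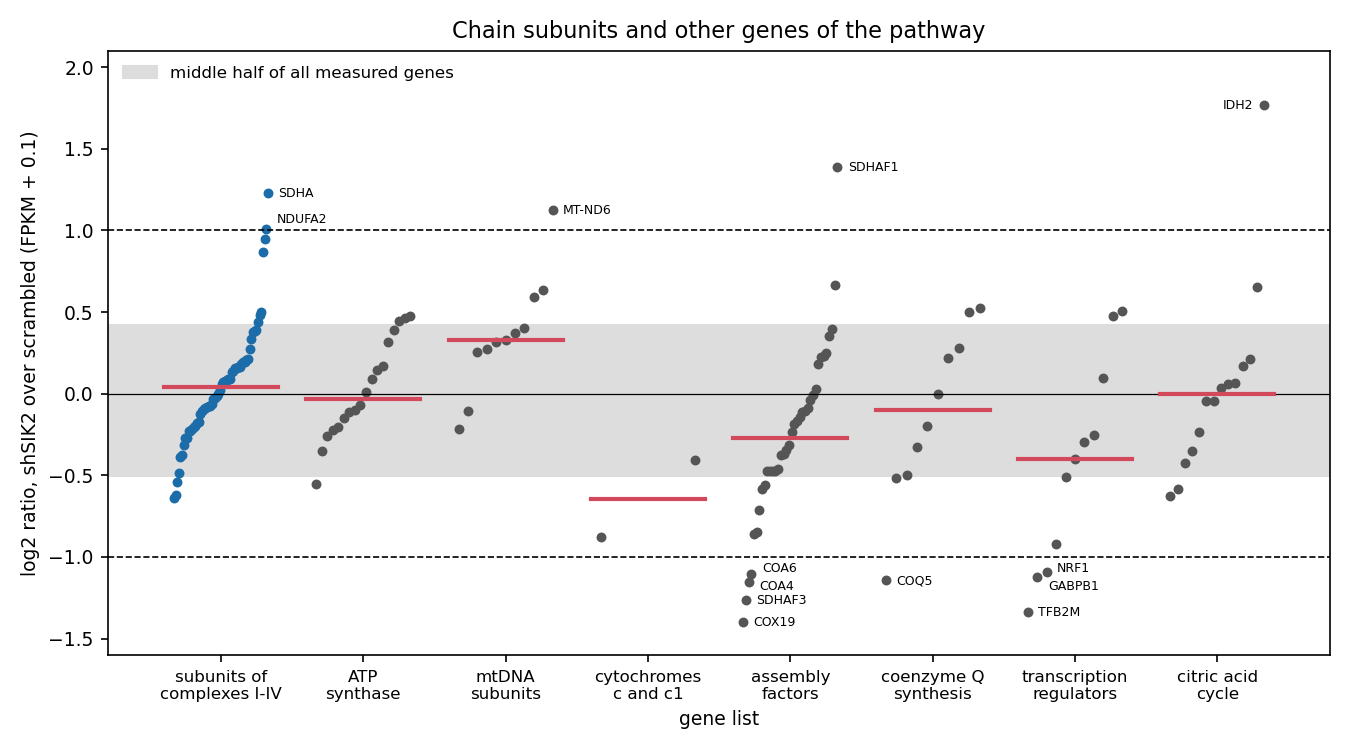
Log2 ratio of shSIK2 over scrambled (vertical axis) for measured genes of each list (horizontal axis); the subunits of complexes I to IV are in blue, red bars are list medians, the grey band is the interquartile range of all measured genes and dashed lines mark 2-fold. The subunits lie around 0.04, the assembly factors around -0.27 and the transcription regulators around -0.40.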

How the data were processed

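Each deposited table held FPKM per Ensembl gene for 1 library, per the file headers. The submitters' processing notes name HISAT2 2.0.5 and hg18. The counter, annotation, strandedness and formula were not stated in those sources. All 58735 identifiers matched GENCODE release 29 (GRCh38), the source of symbols, exons and coordinates. FPKM times exon length gave whole multiples of one step for 100% of values (tolerance 0.001), taken as reads. Both tables share the step, so the values were not scaled to equal totals.

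Groups came from sample titles. Measured genes reached 1 FPKM in either library, log2 ratios used a pseudocount of 0.1 FPKM, and 2-fold and 1.5-fold were the thresholds. A single library per group allows no test. Trends were removed as medians in 20 bins each of GC content and exon length. The FPKM table holds no molecular identifiers, and its intervals cover counting error only. Members and lists were chosen with earlier results of these data known. Named genes were those past 2-fold, the 4 most different and 3 highest of each complex, isoforms, core and SDH subunits, and up to 3 per other list; others named were chosen after their values were seen. Promoters came from RefSeq (GRCh38.p14). For a certain gene the values are not reported here. Methods were tested on simulated data. Scripts ran in Python 3.11.15 with matplotlib 3.10.9, scipy 1.17.1, pandas 2.3.3 and numpy 2.4.6.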

Additional observations from a re-analysis of the deposited data

How the results depend on the processing

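Among results past 1.5-fold or 2-fold, NDUFA12 alone changed sign, at 0.11 relative to its chromosome neighbours. Under the alternatives 440 of 521 values over 47 results stayed within their spread or counting interval or, for counts, within 1.5 times. Changing the minimum level, the fold threshold or the placing of genes in complexes leaves each gene's own log2 ratio as it is. Many of these values therefore could not move, and the 440 do not measure how stable the results are. With a pseudocount of 1 FPKM 1 subunit and 1 member (SDHA in both) were at least 2-fold higher, and with 0.01 FPKM 1 member (NDUFA4L2) was 2-fold lower. With no minimum level 5 members were higher, COX6B2 and COX8C among them on few reads. At equal totals the subunits' median was 0.18, with 4 subunits and 5 members higher past 2-fold. By 1.5-fold 6 subunits were then higher and 0 lower. Without the GC and length trend the median was 0.17, and 1 member was lower. Relative to chromosome neighbours the subunits' median was 0.22, that of complex I was 0.20, and 1 subunit was higher. At a 1.5-fold threshold 4 subunits were higher and 2 lower, and 5 members were higher and 4 lower. The cause of these shifts was not tested. Adding pseudogene reads, moving NDUFA4 to complex I and placing each gene by its symbol left the subunit counts within 1.5 times. The alternatives that leave out subunits sharing exons, leave out SDHA or use the principal transcript's length were added after the data were seen. No paired analysis was possible because each group holds 1 library, and for that reason no library could be left out. Depth limits COX6B2, COX8C, NDUFA7 and NDUFA13, each with under 25 reads in either library.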

Other observations

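For 15 members another protein-coding gene starts within 1000 bases on the opposite strand. Spearman's rho between the log2 ratios of member and partner was 0.04 over the 15 pairs. So few pairs cannot show whether such genes move together, and some partners had few reads, such as OSCAR beside NDUFA3 with 7 and 36. NDUFS1 and EEF1B2 were both lower, as given above. NDUFS6 (-0.27) and MRPL36, a mitochondrial ribosomal protein gene 34 bases away with 293 and 751 reads (1.35), had opposite signs. NDUFB5 (0.16) and MRPL47, another mitochondrial ribosomal protein gene 36 bases away with 1357 and 806 reads (-0.75), also had opposite signs. NDUFAF2 (-0.95) lay 56 bases from ERCC8, a DNA repair gene with 261 and 277 reads (0.08). These pairs were chosen after their values were seen.

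The 7 iron-sulfur subunits (NDUFS1, NDUFS7, NDUFS8, NDUFV1, NDUFV2, SDHB and UQCRFS1) had a median log2 ratio of -0.17, with 2 above 0 and 5 below, and 0 past 2-fold. All 12866 measured genes had a median of -0.11, with 5609 above 0, 7187 below and 19.3% past 2-fold. At equal totals the median of the 7 was -0.04, with 3 above 0 and 4 below, beside 6647 and 6219 of all measured genes.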
